A study of Mus musculus with 12 samples.

Results

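The cholesterol and fatty acid synthesis genes described here were 38 listed genes for the enzymes that build sterols and long-chain fatty acids, for the regulators of those enzymes and for 1 sterol carrier. They were found by gene symbol in the array annotation, and 34 of the 38 were measured, among 17097 genes in all. Srebf1, Pmvk, Acat2 and Scd2 were not analysed here. The arrays measured RNA of primary mouse embryonic fibroblasts (MEFs) taken at e14.5 from C57BL/6 x 129Sv F1 embryos and used at passage 4. The double knockout (dKO) cells carried conditional alleles of both genes for CBP and p300, which are related acetyltransferases and transcriptional coactivators, and Cre recombinase deleted these alleles. The groups were dKO cells with 2,2'-dipyridyl (DP), dKO cells with ethanol, wild-type (WT) cells with DP and WT cells with ethanol, with 3 arrays each. DP chelates iron and is used to mimic low oxygen, and it was given at 100 µM for 3 h, while ethanol was its vehicle. Cells of all 4 groups, WT included, had been exposed for 16 h, in 3% oxygen, to an adenovirus that expresses Cre (multiplicity of infection 100), and were then kept 48 h in 3% oxygen and 24 h in normoxia. Each numbered MEF culture of a genotype (dKO lines 1, 5 and 6, WT lines 3, 4 and 5) gave 1 array per treatment. The labels do not say that each line came from a separate embryo, so the p-values measure the spread between these cultures.

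Cells make cholesterol from acetyl-CoA through mevalonate, farnesyl diphosphate, squalene and lanosterol, and they build fatty acids from acetyl-CoA, malonyl-CoA and NADPH before elongases and desaturases extend and modify the chains. The genes of both routes are controlled by sterol regulatory element-binding proteins (SREBPs), transcription factors made as precursors in the membrane of the endoplasmic reticulum. Scap carries a precursor to the Golgi, where proteases release its active part, and Insig proteins hold Scap back when sterols are plentiful. SREBPs bind sterol regulatory elements in promoters, often close to CCAAT boxes, which are bound by the factor NF-Y, and CBP and p300 are among their known coactivators. In fibroblasts these routes supply membrane lipids. Squalene epoxidase, the lanosterol demethylase, methylsterol monooxygenase, lathosterol oxidase and the fatty acyl desaturases all use molecular oxygen.

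Promoter windows are shown for the 3 members whose window held the sterol regulatory element core searched here (Srebf2, Hmgcs1 and Msmo1) and for Cyp51, which had the most negative genotype difference of the members and held no such match. Each window runs 5′ to 3′ on the gene's strand, from 250 bases before to 50 bases after the annotated start, in RefSeq build GRCm38.p6. The windows lie at chr15:82147019-82147318 (plus strand, Srebf2), chr13:119690101-119690400 (plus strand, Hmgcs1), chr8:64733529-64733828 (minus strand, Msmo1) and chr5:4104648-4104947 (minus strand, Cyp51). Capitals mark the core TCACNCCA and the CCAAT box, each on either strand, so that a CCAAT box on the other strand reads ATTGG.
Srebf2: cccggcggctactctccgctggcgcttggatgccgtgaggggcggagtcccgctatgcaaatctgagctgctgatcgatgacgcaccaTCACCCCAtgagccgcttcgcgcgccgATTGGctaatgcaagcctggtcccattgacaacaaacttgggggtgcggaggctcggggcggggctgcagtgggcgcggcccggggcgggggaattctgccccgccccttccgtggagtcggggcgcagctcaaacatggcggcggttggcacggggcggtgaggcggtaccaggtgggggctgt
Hmgcs1: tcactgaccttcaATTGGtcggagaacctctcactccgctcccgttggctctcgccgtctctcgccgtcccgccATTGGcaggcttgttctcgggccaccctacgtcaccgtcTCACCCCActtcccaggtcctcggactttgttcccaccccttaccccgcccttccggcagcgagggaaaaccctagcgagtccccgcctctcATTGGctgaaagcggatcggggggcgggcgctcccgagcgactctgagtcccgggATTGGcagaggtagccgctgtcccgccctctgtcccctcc
Msmo1: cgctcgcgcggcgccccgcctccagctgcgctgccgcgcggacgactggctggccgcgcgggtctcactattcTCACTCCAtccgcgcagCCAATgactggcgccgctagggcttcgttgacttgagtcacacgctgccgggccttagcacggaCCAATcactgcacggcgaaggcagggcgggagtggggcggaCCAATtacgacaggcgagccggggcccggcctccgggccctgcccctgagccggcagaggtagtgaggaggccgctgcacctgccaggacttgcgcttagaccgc
Cyp51: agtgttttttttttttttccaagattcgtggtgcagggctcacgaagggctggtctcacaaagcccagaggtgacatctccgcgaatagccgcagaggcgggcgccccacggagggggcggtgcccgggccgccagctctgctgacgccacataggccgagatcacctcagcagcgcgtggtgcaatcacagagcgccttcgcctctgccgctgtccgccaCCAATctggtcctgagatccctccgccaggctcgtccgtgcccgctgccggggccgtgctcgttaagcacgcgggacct
RefSeq windows were matched for 28 of the 34 members, as 35 windows; Fads1, Fdft1, Fdps, Scd1, Sqle and Stard4 were not matched. The sterol element core stood in 3 of these 35 windows (8.57%), against 4.36% of all 32851 windows. A CCAAT box stood in 23 of them (65.7%), against 37.4% of all windows. The hypoxia response element core, ACGTG on either strand, stood in 11 (31.4%), against 19.6% of all windows. These 11 windows belong to 10 members, since both windows of Scap, which overlap each other, held the core. In 0 of the 35 windows did matches of different motifs share a base. The spelling of the sterol core was chosen after its matches had been seen, and a match in letters is a description, not a binding site.

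Values are log2 probe set summaries, and 1 probe set, the one of highest mean, stands for each gene. The median of an array was 3.87 to 3.98 log2, and blank control probe sets had a 95th percentile of 3.28 to 3.54. Group means of Hmgcs1 in 3 of 4 groups and of Acacb in 2 of 4 were at or below that blank level. Their differences are therefore uncertain and may be understated, which was not tested. Crebbp, the gene for CBP, read 7.02 to 7.69 log2 in dKO cells and 8.07 to 8.54 in WT cells, and whether its probe set lies in the deleted part was not tested. The genotypes also differed in sex-linked genes: the Y-linked Eif2s3y read 7.08 to 8.93 in dKO cells and 2.49 to 3.29 in WT cells, and Xist read 3.94 to 5.32 in dKO cells and 10.28 to 10.75 in WT cells. Genotype and sex cannot be told apart here, and 3 members (Nsdhl, Ebp and Mid1ip1) are X-linked. The 3′ probe set of beta-actin exceeded its 5′ probe set by 0.40 to 0.60 log2 in dKO arrays and 0.23 to 0.38 in WT arrays. A larger excess is a sign of less intact RNA, so this measure of RNA integrity differed with genotype. It also differed with treatment, at 0.48 to 0.60 with DP and 0.40 to 0.45 with ethanol in dKO cells. In WT cells it was 0.28 to 0.38 with DP and 0.23 to 0.25 with ethanol. The same excess for Gapdh was 0.10 to 0.21 in dKO arrays and -0.03 to 0.17 in WT arrays, which overlap. All 10 fibroblast markers were lower in dKO cells, with array means of 7.79 to 8.30 in dKO cells and 9.81 to 9.96 in WT cells in ethanol, and 7.72 to 8.24 in dKO cells and 9.84 to 10.06 in WT cells under DP. Their part in the results below was not tested, and fewer cells of a type and less RNA per cell cannot be told apart. Of 6 adipocyte markers 3 were lower in dKO cells in ethanol, among them Fabp4 and Lpl, with Adipoq near the blank level in all 4 groups. Of 5 macrophage markers, Lyz2 averaged 4.65 log2 in dKO cells and 8.06 in WT cells in ethanol, Csf1r was also lower and Cd68 was higher (6.95 in dKO cells, 5.42 in WT cells), while Ptprc was near the blank level throughout. Of 4 epithelial markers 3 were lower (Krt8, Krt18 and Epcam) with Cdh1 near the blank level, and of 4 neural markers Tubb3 was lower (4.25 in dKO cells, 7.75 in WT cells). Of 6 hepatocyte and 4 endothelial markers 0 were called in ethanol, and Alb and Pecam1 were near the blank level throughout. The part of these markers in the results was not tested either. Arrays of dKO line 1 and WT line 5 in ethanol correlated least with their own group, at a mean r of 0.989 and 0.99 over all genes.

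The first comparison asked which of these genes differed between genotypes without DP. In ethanol, 23 of 34 members were lower in dKO cells than in WT cells, 3 were higher (Insig2, Tm7sf2 and Ebp) and 8 were not called, where a call is a limma p under 0.05 after Benjamini-Hochberg adjustment over all genes. Over all genes, 33.6% were called, 14.1% lower and 19.5% higher. The median log2 difference was -1.02 for the members, about 2.03-fold lower in dKO cells, against -0.01 for all genes. Under DP, 22 members were lower in dKO cells and 2 were higher (Tm7sf2 and Ebp), where 35.4% of all genes were called, 16.9% lower and 18.5% higher, and the members' median was -1.03. Of the members, 21 were lower in both treatments. These included all 5 mevalonate genes and 10 of the 12 later sterol genes. Of 7 genes of acetyl-CoA supply and chain synthesis, 5 were not called in ethanol and 2 were (28.6%), near the 33.6% of all genes. Without the 3 X-linked members, 21 of 31 were lower and 2 higher in ethanol. Without these 2 ethanol arrays (dKO line 1 and WT line 5), 29 members were called in ethanol and 29 under DP. The shares of all genes called then also rose, to 37.2% and 44.8%. These arrays enter the DP contrast only through the shared estimate of the spread. With this beta-actin measure as a covariate, 11 were called in ethanol and 10 under DP, where 6.61% and 6.0% of all genes were called. All 26 and 24 members called without it kept their sign, with standard errors a median 2.18 and 2.25 times as large. The 11 were Cyp51, Fdft1, Fdps, Hsd17b7, Insig1, Mid1ip1, Nsdhl, Sc5d, Scd1, Sqle and Srebf2. The 3 members that were higher in ethanol were not called with the covariate (adjusted p = 0.0632 for Insig2, 0.25 for Tm7sf2 and 0.328 for Ebp).

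**Figure D1:**
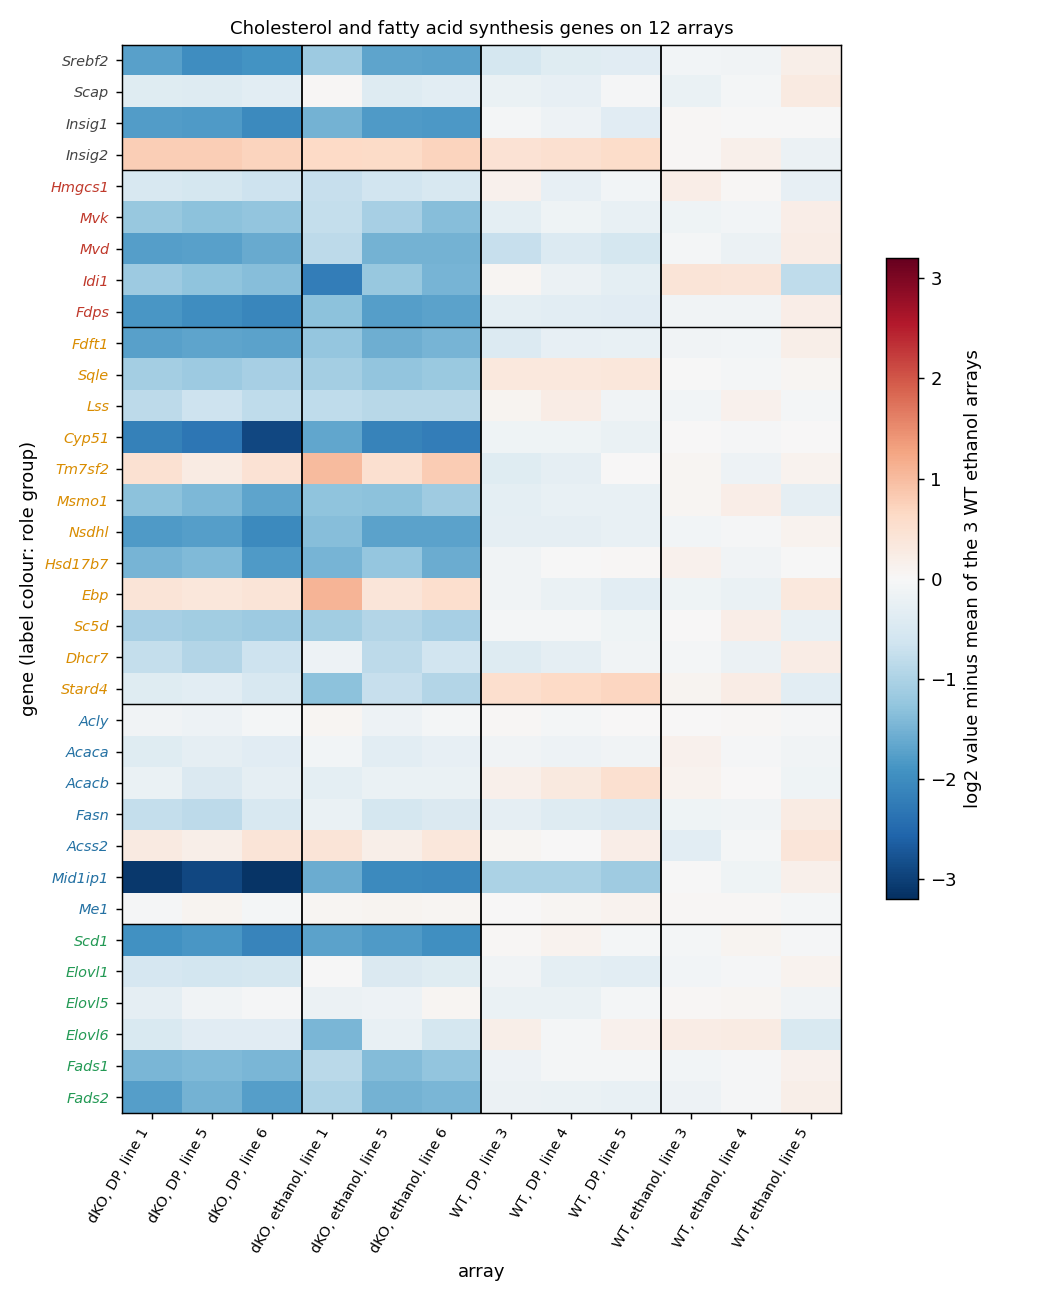
Each cell is the log2 value of 1 of the 34 genes (rows, grouped by role through the label colour) on 1 of 12 arrays (columns), minus the mean of the 3 WT ethanol arrays. The 6 dKO columns on the left are blue for most sterol genes and for Mid1ip1, Scd1, Fads1 and Fads2, while Insig2, Tm7sf2 and Ebp are red there.

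**Figure D2:**
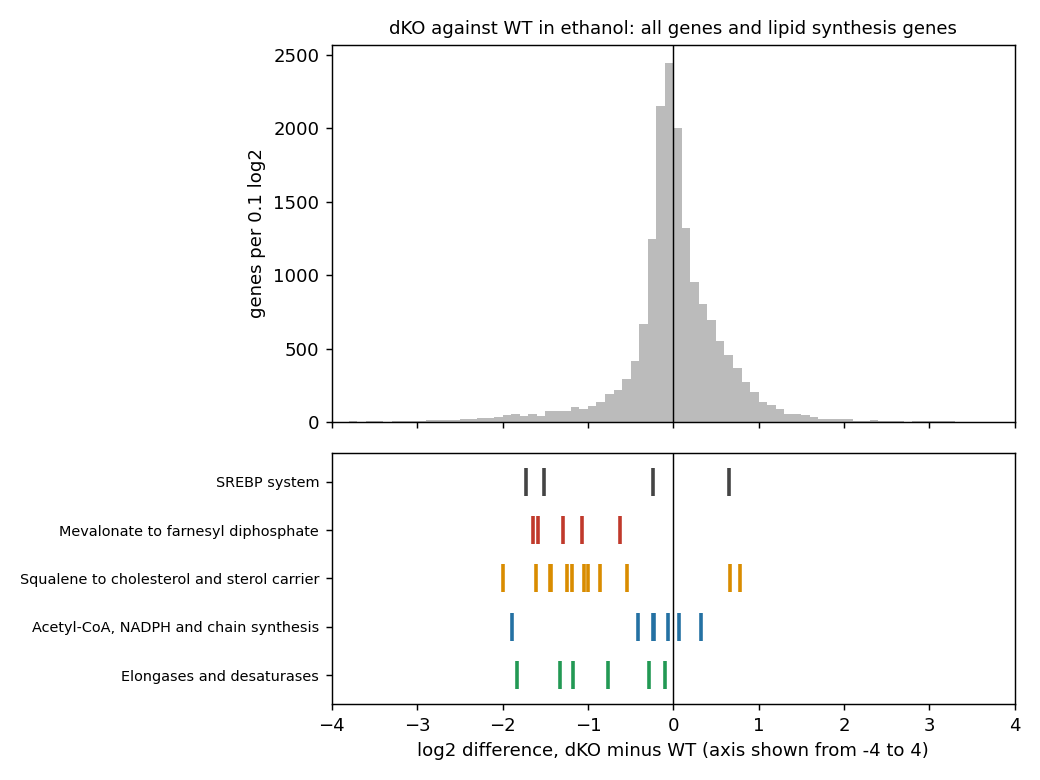
The upper panel counts all 17097 genes by their log2 difference, dKO minus WT in ethanol, in steps of 0.1 (a few genes lie beyond the axis), and the lower panel marks each of the 34 genes by role. The medians were -1.02 for the 34 genes and -0.01 for all genes, and the genes of chain synthesis lie around 0 apart from Mid1ip1 at -1.89.

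Of the 4 measured genes of the SREBP system, 2 were lower in dKO cells in ethanol and 1 was higher. Of all genes, 14.1% were lower and 19.5% higher in ethanol. Srebf2, which encodes SREBP2, the main activator of the sterol genes, read 7.44, 6.92 and 6.90 in dKO cells in ethanol, against 8.52, 8.49 and 8.79 in WT cells. The 6 arrays did not overlap, and the difference was -1.52 ± 0.15 (SE, limma adjusted p = 5.37e-06), or 2.86-fold lower in dKO cells. Under DP Srebf2 read 6.85, 6.60 and 6.69 in dKO cells, against 8.03, 8.22 and 8.24 in WT cells, a difference of -1.45 ± 0.15 (adjusted p = 7.1e-06). Its other probe set gave a smaller difference in ethanol, of -0.79 ± 0.17 (adjusted p = 0.00267). Insig1 encodes a protein that retains Scap, and is itself a known SREBP target. Insig1 read 7.22, 6.92 and 6.89 in dKO cells in ethanol, against 8.77, 8.72 and 8.72 in WT cells, a difference of -1.73 ± 0.12 (adjusted p = 2.88e-07), and it was 3.23-fold lower in dKO cells under DP. Its paralog Insig2 went the other way. Insig2 read 9.42, 9.41 and 9.50 in dKO cells in ethanol, against 8.84, 8.94 and 8.60 in WT cells, a difference of 0.65 ± 0.10 (adjusted p = 0.000195) with no overlap of the groups. The other probe sets of Insig2 gave 0.85 and 0.33 in ethanol, and both were called. Under DP the Insig2 difference was 0.24 ± 0.10, which was not called (adjusted p = 0.0761). The other probe sets then gave 0.24 and -0.22, neither called, so that the probe sets differed in sign under DP. Scap, the escort of the SREBPs, was not called, with a difference of -0.23 ± 0.14 in ethanol and -0.20 ± 0.14 under DP.

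All 5 measured genes of the mevalonate route to farnesyl diphosphate were lower in dKO cells in both treatments, with median differences of -1.29 in ethanol and -1.12 under DP. Fdps encodes farnesyl diphosphate synthase, whose product is the branch point to sterols and prenyl groups. Fdps read 9.23, 8.79 and 8.82 in dKO cells in ethanol, against 10.43, 10.42 and 10.76 in WT cells, and was 3.01-fold lower (adjusted p = 1.73e-06). Idi1, for the isomerase of the isoprene units, was the most variable of the group. Its values in ethanol were 6.46, 7.44 and 7.16 in dKO cells, against 9.08, 9.05 and 7.85 in WT cells, a difference of -1.64 ± 0.30 (adjusted p = 0.000885). Its lowest value in each genotype came from the ethanol arrays of dKO line 1 and WT line 5, and under DP its difference was -1.12 ± 0.30 (adjusted p = 0.0112). Mvd, the decarboxylase of mevalonate diphosphate, differed by -1.29 ± 0.17 in ethanol and -1.14 ± 0.17 under DP. Mvk, mevalonate kinase, differed by -1.06 ± 0.14 and -1.03 ± 0.14. Hmgcs1, the cytosolic HMG-CoA synthase at the head of the route, was measured by a single probe set near the blank level. It read 2.85, 2.97 and 3.06 in dKO cells in ethanol, against 3.80, 3.63 and 3.33 in WT cells, a difference of -0.62 ± 0.13 (adjusted p = 0.0025).

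Of the 12 genes from squalene to cholesterol, with the sterol carrier Stard4 among them, 10 were lower in dKO cells and 2 higher in both treatments, and the medians were -1.11 in ethanol and -1.13 under DP. Cyp51, the lanosterol demethylase, had the most negative difference of all 34 members. It read 7.82, 7.34 and 7.27 in dKO cells in ethanol, against 9.48, 9.44 and 9.49 in WT cells, a difference of -2.0 ± 0.18 (adjusted p = 2.77e-06), and 243 of the 17097 genes had a more negative one. Under DP it read 7.30, 7.16 and 6.57 in dKO cells, against 9.33, 9.33 and 9.26 in WT cells, or 4.92-fold lower (adjusted p = 8.73e-07). The WT arrays lay close together, and the spread of Cyp51 was among dKO lines. Nsdhl and Hsd17b7, which act with Msmo1 in removing the methyl groups of lanosterol, differed by -1.61 ± 0.12 and -1.44 ± 0.13 in ethanol, and Msmo1 by -1.25 ± 0.13. Fdft1, squalene synthase, is the first enzyme committed to sterols. It read 8.80, 8.47 and 8.55 in dKO cells in ethanol, against 9.93, 9.95 and 10.23 in WT cells, a difference of -1.43 ± 0.11. Sqle, squalene epoxidase, differed by -1.19 ± 0.08 in ethanol and -1.46 ± 0.08 under DP, and Lss, which closes the rings of lanosterol, by -0.86 ± 0.11 and -0.84 ± 0.11. Among the last steps, Sc5d, lathosterol oxidase, differed by -1.04 ± 0.11 in ethanol. Its 2 other probe sets gave -0.60 and -0.32 and were not called (adjusted p = 0.1215 and 0.1357). Dhcr7, the reductase that completes cholesterol in one branch, had the smallest difference of the 10, of -0.54 ± 0.16 (adjusted p = 0.023), and its arrays overlapped in ethanol. That call was lost without the ethanol array of dKO line 5, dKO line 6 or WT line 5 (adjusted p = 0.1004, 0.0789 and 0.0889). Under DP it was lost without the DP array of dKO line 1, dKO line 5, WT line 4 or WT line 5 (adjusted p = 0.0617, 0.0992, 0.0648 and 0.1062).

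The 2 sterol genes that were higher in dKO cells were Tm7sf2, a sterol reductase of the inner nuclear membrane and endoplasmic reticulum, and Ebp, a sterol isomerase. Tm7sf2 read 8.00, 7.50 and 7.81 in dKO cells in ethanol, against 7.05, 6.82 and 7.09 in WT cells, a difference of 0.78 ± 0.14 (adjusted p = 0.000817). Ebp read 9.72, 9.01 and 9.16 in dKO cells in ethanol, against 8.50, 8.42 and 8.96 in WT cells, a difference of 0.67 ± 0.18 (adjusted p = 0.00987). Under DP both remained higher, by 0.63 ± 0.14 for Tm7sf2 and 0.62 ± 0.18 for Ebp, with no overlap of the groups. The Ebp call under DP was lost without the DP array of WT line 5 (adjusted p = 0.0594). Stard4, a cytosolic carrier that moves cholesterol between membranes, was lower in dKO cells, with 6.34, 6.93 and 6.74 in dKO cells in ethanol, against 7.76, 7.90 and 7.34 in WT cells. Its difference of -1.0 ± 0.16 in ethanol (adjusted p = 0.000322) stood beside -1.40 and -0.70 for its 2 other probe sets, both called.

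Acetyl-CoA supply, NADPH supply and chain synthesis held 7 genes, of which 2 were lower in dKO cells in each treatment and 0 were higher, with medians of -0.23 in ethanol and -0.20 under DP. Mid1ip1, a small protein that promotes the polymerisation and activity of acetyl-CoA carboxylase, was the clear exception to the small differences of this group. It read 8.03, 7.57 and 7.56 in dKO cells in ethanol, against 9.59, 9.48 and 9.76 in WT cells, a difference of -1.89 ± 0.13 (adjusted p = 4.34e-07). Fasn, fatty acid synthase, read 9.26, 8.93 and 9.02 in dKO cells in ethanol, against 9.34, 9.38 and 9.74 in WT cells. Its difference of -0.42 ± 0.13 (adjusted p = 0.0288) was lost without any 1 of 3 ethanol arrays (dKO line 5, dKO line 6 or WT line 5, adjusted p = 0.1059, 0.089 and 0.1127), and under DP it was -0.32 ± 0.13 and not called. Acacb, the carboxylase linked to mitochondria, was called under DP (-0.65 ± 0.11, adjusted p = 0.000602) and not in ethanol (-0.24 ± 0.11), and its dKO means were near the blank level. Its other probe set, dimmer still, gave -0.13 ± 0.12 under DP and was not called (adjusted p = 0.441). The cytosolic carboxylase gene Acaca differed by -0.23 ± 0.10 and -0.20 ± 0.10, and neither value was called. Acly, the citrate lyase that supplies cytosolic acetyl-CoA, differed by -0.06 ± 0.09 in ethanol, but its other probe set gave -0.33 ± 0.09 (adjusted p = 0.0104). Me1, the malic enzyme that supplies NADPH, differed by 0.06 ± 0.08 and the acetyl-CoA synthetase gene Acss2 by 0.33 ± 0.15 in ethanol, and neither was called.

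Among the 6 measured elongases and desaturases, 4 were lower in dKO cells in ethanol and 3 under DP, and the 3 desaturases were called in both. Of all genes, 14.1% were lower in ethanol and 16.9% under DP. Scd1, which makes oleate and palmitoleate from saturated chains, read 9.17, 9.06 and 8.91 in dKO cells in ethanol, against 10.82, 10.96 and 10.84 in WT cells. The groups lay far apart, and the difference was -1.83 ± 0.10 (adjusted p = 7.72e-08), or 3.55-fold lower in dKO cells, and 4.00-fold lower under DP. Fads1 and Fads2, the desaturases of polyunsaturated chains, differed by -1.17 ± 0.12 and -1.32 ± 0.14 in ethanol and by -1.35 ± 0.12 and -1.46 ± 0.14 under DP. Elovl6, the elongase that turns palmitate into stearate, was called only narrowly. It read 6.56, 7.79 and 7.45 in dKO cells in ethanol, against 8.27, 8.28 and 7.53 in WT cells, a difference of -0.76 ± 0.27 (adjusted p = 0.0433) with overlap. Its lowest value in each genotype was again on the ethanol arrays of dKO line 1 and WT line 5. Leaving out 1 array ended the call for 10 of the 12 arrays, with adjusted p between 0.0555 and 0.1431. The exceptions were the ethanol arrays of dKO line 5 and WT line 5. Without a DP array the difference in ethanol stayed at -0.76, and only its SE and adjusted p (0.0555 to 0.0582) moved. Elovl1 differed by -0.29 ± 0.12 and Elovl5 by -0.10 ± 0.10 in ethanol, and neither was called.

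**Figure D3:**
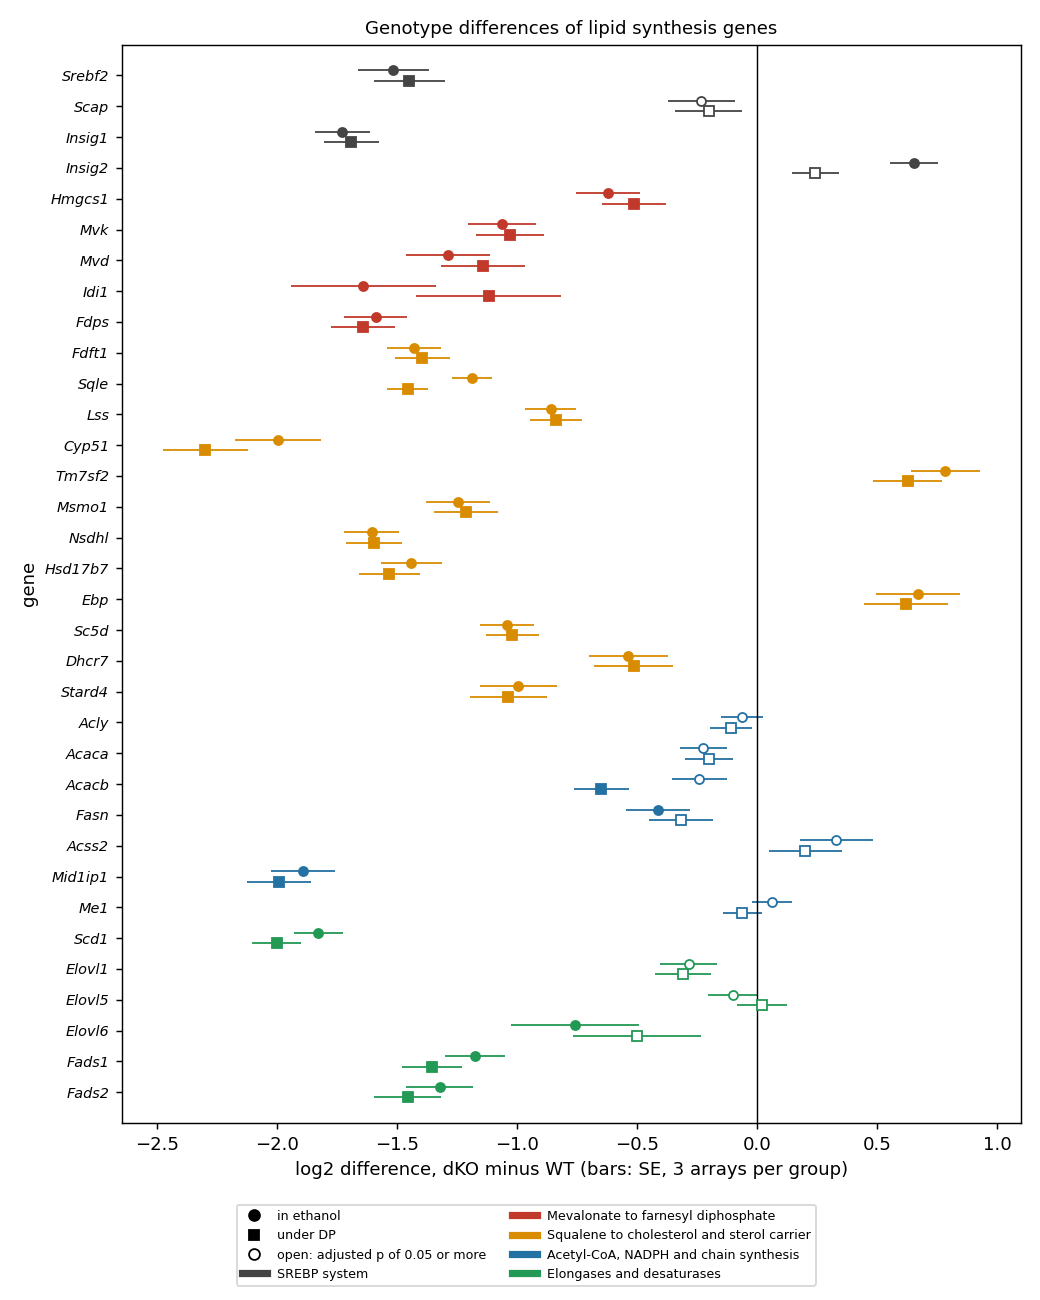
Each gene has its log2 difference, dKO minus WT, in ethanol (circle) and under DP (square), with bars for the SE, and filled symbols mark an adjusted p under 0.05. The 5 mevalonate genes lie between -1.64 and -0.51, whereas Insig2, Tm7sf2 and Ebp lie above 0.

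The 7 measured members whose product uses molecular oxygen (Sqle, Cyp51, Msmo1, Sc5d, Scd1, Fads1 and Fads2) were all lower in dKO cells in both treatments, with medians of -1.25 in ethanol and -1.46 under DP. Their groups did not overlap in either treatment. Over all 34 members, the 3 dKO arrays lay below the 3 WT arrays for 22 members in ethanol, where 18.8% of all genes did so, and for 28 members under DP, where 25.3% did so. The median member lay 0.85 to 0.99 log2 below the WT ethanol mean on each dKO ethanol array (-0.85, -0.92 and -0.99), and -0.94, -1.01 and -0.95 on the dKO DP arrays. The WT DP arrays had medians of -0.12, -0.18 and -0.12. The median member was thus lower on every dKO array than on every WT array. For the mevalonate genes the ethanol arrays varied more, with -0.83, -1.22 and -1.50 in dKO lines 1, 5 and 6.

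The second comparison asked how 3 h of DP changed these genes. In dKO cells 1 of 34 members changed (2.94%), against 1.5% of all genes (0.491% fell), and in WT cells 4 of 34 (11.8%), against 4.73% of all genes. Mid1ip1 fell in both genotypes, and Insig2, Stard4 and Sqle rose in WT cells, where 3.05% of all genes rose and 1.67% fell. The median change was -0.15 for the members in dKO cells and -0.17 in WT cells, against -0.05 and -0.03 for all genes. No gene of the mevalonate route, and no elongase or desaturase, was called in either genotype. Among the uncalled values, Cyp51 had the most negative in dKO cells (-0.47 ± 0.18, with -0.16 ± 0.18 in WT cells). Its other probe sets gave -0.20 ± 0.19 and 0.005 ± 0.194 in dKO cells, neither called. Mvd had the most negative in WT cells (-0.57 ± 0.17, with -0.42 ± 0.17 in dKO cells). The dKO and the WT effects are measured against different ethanol arrays, whereas each DP effect shares its arrays with the genotype comparisons.

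**Figure D4:**
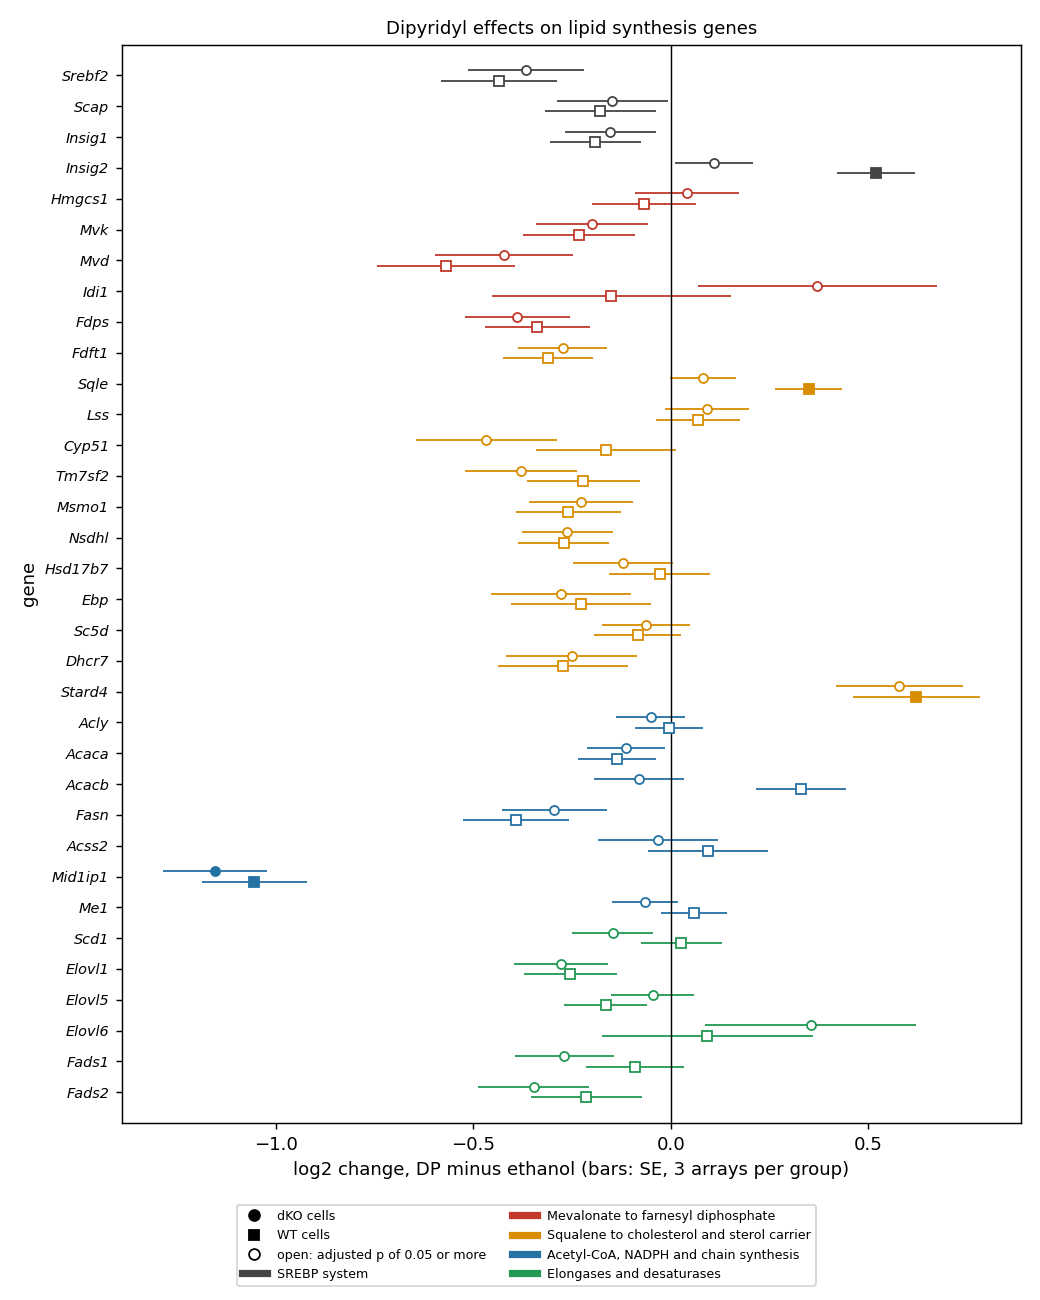
Each gene has its log2 change, DP minus ethanol, in dKO cells (circle) and WT cells (square), with bars for the SE, and filled symbols mark an adjusted p under 0.05. Mid1ip1 lies apart on the left in both genotypes, and Stard4, Insig2 and Sqle are the filled squares on the right.

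Mid1ip1 read 6.52, 6.70 and 6.48 in dKO cells with DP, against 8.03, 7.57 and 7.56 in dKO cells with ethanol. The groups did not overlap, all 3 lines fell (by line -1.51, -0.87 and -1.08), and the change was -1.15 ± 0.13 (adjusted p = 0.000327). In WT cells Mid1ip1 read 8.60, 8.60 and 8.46 with DP, against 9.59, 9.48 and 9.76 with ethanol, a change of -1.05 ± 0.13 (adjusted p = 0.000294). The falls were 2.22-fold in dKO cells and 2.08-fold in WT cells, and every dKO array lay below every WT array of the same treatment. With the beta-actin covariate the dKO call was lost (-0.96 ± 0.19, adjusted p = 0.0601) and the WT call held.

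Insig2 read 9.26, 9.31 and 9.37 in WT cells with DP, against 8.84, 8.94 and 8.60 with ethanol, and it rose in all 3 lines, by 0.52 ± 0.10 (adjusted p = 0.00707). In dKO cells it read 9.58, 9.58 and 9.49 with DP, against 9.42, 9.41 and 9.50 with ethanol, a change of 0.11 ± 0.10 that was not called. The WT call was lost with the beta-actin covariate (adjusted p = 0.0824). The other probe sets of Insig2 rose by 0.78 ± 0.08 and 0.67 ± 0.08 in WT cells with DP, and in dKO cells their values were 0.17 ± 0.08 and 0.12 ± 0.08, not called. Stard4 read 8.20, 8.31 and 8.35 in WT cells with DP, against 7.76, 7.90 and 7.34 with ethanol, a rise of 0.62 ± 0.16 (adjusted p = 0.0449). In dKO cells it read 7.28, 7.32 and 7.15 with DP, against 6.34, 6.93 and 6.74 with ethanol, and the change of 0.58 ± 0.16 was not called (adjusted p = 0.123). Its other probe sets changed by -0.15 and 0.34 in dKO cells and by 0.47 and 0.80 in WT cells, and of these 0.80 was called. Sqle read 10.01, 10.00 and 10.04 in WT cells with DP, against 9.67, 9.60 and 9.74 with ethanol, a rise of 0.35 ± 0.08 (adjusted p = 0.0325). In dKO cells Sqle changed by 0.08 ± 0.08 and was not called. With the MEF line as a block, 2 members were called in WT cells, Mid1ip1 and Insig2, and Stard4 and Sqle were lost (adjusted p = 0.0532 and 0.0781). Both were also lost without any 1 of the WT DP arrays, the ethanol array of WT line 3 or of dKO line 6, or the DP array of dKO line 1. With 1 array left out at a time, between 2 and 6 members were called in WT cells, the 6 without the ethanol array of dKO line 1, and without the ethanol arrays of dKO line 1 and WT line 5 together 6 were, with Idi1 and Mvd added as falls.

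**Figure D5:**
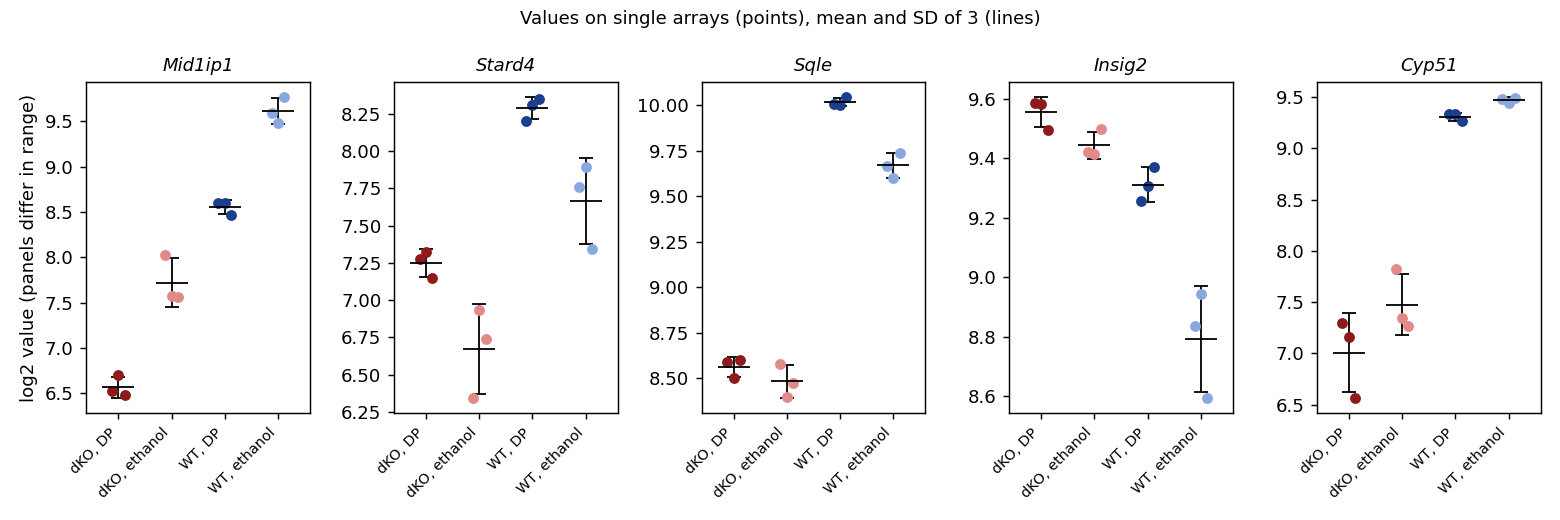
Points are the log2 values of the 4 members that changed with DP, and of Cyp51, on single arrays in the groups dKO with DP, dKO with ethanol, WT with DP and WT with ethanol, and lines give the mean and SD of 3 arrays. Mid1ip1 is lower with DP in both genotypes, and Cyp51 differs by genotype, with 6.57 to 7.82 on all dKO arrays and 9.26 to 9.49 on all WT arrays.

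The third comparison asked whether the DP effects differed between genotypes, as the difference of the changes (dKO minus WT). By limma 0 of 34 members were called, against 0.562% of all genes, and the values ran from -0.41 to 0.52. At an unadjusted p under 0.05 there were 3 members, Acacb, Insig2 and Sqle (8.82%), against 5.92% of all genes. Insig2 had -0.41 ± 0.14 (adjusted p = 0.505), Acacb -0.41 ± 0.16 (adjusted p = 0.69) and Sqle -0.27 ± 0.12 (adjusted p = 0.81). For Mid1ip1 the difference was -0.10 ± 0.19, and for Stard4 -0.04 ± 0.23. The most positive value was that of Idi1, 0.52 ± 0.43, whose ethanol arrays varied. In the fit over single probe sets, the other 2 of Insig2 gave -0.61 ± 0.12 (adjusted p = 0.0578) and -0.55 ± 0.12 (adjusted p = 0.104), and those of Stard4 -0.62 ± 0.17 (adjusted p = 0.307) and -0.46 ± 0.27 (adjusted p = 0.95). A difference was thus not called for any of these probe sets, and those of Insig2 came closest.

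Other genes around the SREBP system, from lists chosen with earlier results known, moved in both directions. Of 11 measured genes for the processing, transport and degradation of SREBP, Scap and Insig, 5 were higher and 2 lower in dKO cells in both treatments (63.6% called, against 33.6% of all genes in ethanol and 35.4% under DP), with a median of 0.23 in ethanol. Higher in ethanol were Erlin1 (0.80 ± 0.18), for a sterol-sensing protein of the endoplasmic reticulum, Ufd1 (0.55 ± 0.09), for an adaptor in protein extraction from that membrane, and Mbtps1 (0.46 ± 0.10), the protease that makes the first cut in SREBP. Sec23a, a coat subunit of the vesicles that leave the endoplasmic reticulum, was lower by a log2 difference of -0.64 ± 0.14. Of 5 other genes for sterol and isoprenoid steps, Ggps1, geranylgeranyl diphosphate synthase, was higher (0.64 ± 0.21) and 4 were not called (20.0% called). None of these 16 genes was called for DP in either genotype. Among all called members in ethanol, 14 had further probe sets, and 18 of the 19 above the blank level had the sign of the chosen one. The exception was a dim probe set of Hsd17b7 (0.01 ± 0.13). Of those 18, 15 were also called. Under DP 15 of 16 such probe sets had the same sign, and 12 of them were called.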

How the data were processed

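RNA of 12 MEF cultures was hybridised to mouse 3′ arrays of Affymetrix after amplification from 100 ng of total RNA, per the labels' protocols. The deposited values are log2 probe set summaries that the authors computed by RMA (Affymetrix Expression Console 1.1), as the submitters' processing notes state. This method corrects background and normalizes between arrays, so a shift shared by most genes would not be seen. Of 45141 probe sets, 104 were controls, 28898 had 1 gene symbol, 551 several and 15588 none. Each of 17097 genes was represented by its 1-symbol probe set of highest mean over the 12 arrays, with no filter on dim genes. The members were given by symbol, and the members and the lists were chosen with earlier results of these data known.

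Group means were compared in limma 3.58.1 (lmFit and eBayes, R 4.3.3) over all 12 arrays with no block, in 5 contrasts, and p-values were adjusted by Benjamini-Hochberg over all genes at a threshold of 0.05; a gene was called under it. Values after ± are moderated SE. Named were all called members, members whose call differed between comparisons, and up to 2 members of largest change in role groups without a call. Other members were given by counts or values. Called genes of neighbouring lists were named, up to 4 per list. Nr1h3 was named beyond the 4 of its list, that of sterol efflux, esterification and traffic. Some members named in addition, such as Acly and Me1, were named after their values were seen. The script was tested on simulated data.

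The same numbered line received both treatments within a genotype, per the labels, which pairs the arrays. As deviations from the group means, the DP and ethanol values of 1 line had r of 0.04, 0.32 and 0.36 (dKO lines 1, 5 and 6) and of 0.42, 0.06 and 0.33 (WT lines 3, 4 and 5) across 8917 genes of mean 5 or more. Alternatives were a block for the line (random where genotypes were compared, otherwise fixed), median centring, cyclic loess, an intensity trend, the mean of probe sets, a filter on the dimmest 40% of genes, leaving out 2 ethanol arrays that stand apart, and leaving out each array. The beta-actin covariate was added after seeing the data. Promoter windows came from RefSeq (GRCm38.p6). Figures used Python 3.11.15 and matplotlib 3.10.9.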

Additional observations from a re-analysis of the deposited data

How the results depend on the processing

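In no setting did a called gene of the set change sign. The counts of called genes moved most with the beta-actin covariate, which was chosen after seeing the data. This covariate separates the genotypes and, within each genotype, the treatments. With it, 11 were called in ethanol, against 26 without it, and 10 under DP against 24. For the DP effect, 1 was called in WT cells against 4, and 0 in dKO cells against 1. Calls over all genes fell as well, in the same order to 6.61%, 6.0%, 2.05% and 0.503%, against 33.6%, 35.4%, 4.73% and 1.5% without the covariate. The median ratio of the changes to those without the covariate was 0.859 in ethanol and 0.841 under DP. With the replicate block 2 genes were called for DP in WT cells (Mid1ip1 and Insig2), and the block changed no other count: 26 in ethanol, 24 under DP, 1 for DP in dKO cells and 0 for the difference, with a consensus correlation of 0.095 for the random block. Leaving out each array gave 23 to 27 genes in ethanol, 22 to 26 under DP, 2 to 6 for DP in WT cells, 1 for DP in dKO cells and 0 for the difference. For DP in WT cells, Mvd and Srebf2 were added without the ethanol array of dKO line 1. Sqle was lost with median centring (adjusted p = 0.211), as was Dhcr7 under DP (adjusted p = 0.068). Cyclic loess added Acaca, Elovl1 and Scap in ethanol. Hmgcs1 and Acacb were too dim to be tested without the dimmest 40% of genes. In all 21 settings the same 11 genes were called in ethanol and 10 under DP. The signal over background limits Hmgcs1 and Acacb, and 3 arrays per group limit the precision.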

Other observations

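Genes next to the synthesis routes were also compared between dKO and WT cells, where 33.6% of all genes were called in ethanol, 19.5% higher and 14.1% lower. Of 12 measured genes of sterol efflux, esterification and traffic, 5 were higher and 4 lower in ethanol by limma (75.0% called). Cyp27a1, the mitochondrial sterol hydroxylase, was higher by 2.38 ± 0.16 log2, and Nceh1, a cholesteryl ester hydrolase, by 1.93 ± 0.14. The hydroxylase gene Ch25h was lower (-2.25 ± 0.18), as was Abcg1, a sterol exporter and target of the LXR receptors (-1.82 ± 0.19), although Nr1h3, the gene for LXR alpha, was higher (1.02 ± 0.12). Of 16 other genes of fatty acid synthesis and supply, 4 were higher and 2 lower in ethanol (37.5% called, close to the share of all genes). Elovl7, an elongase of long chains, was higher by 3.27 ± 0.12 log2, while Idh1, a cytosolic source of NADPH, was lower (-1.0 ± 0.15).

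Of 13 measured genes of glycerolipid synthesis, 4 were higher and 3 lower in dKO cells in ethanol (53.8% called, against 33.6% of all genes), with Acsl3, an acyl-CoA synthetase, at -1.62 ± 0.23. In WT cells DP raised 3 of them (3.05% of all genes rose): Dgat2, which makes triglyceride from diglyceride, by 2.30 ± 0.13, Lpin1, a phosphatidate phosphatase, by 1.00 ± 0.10, and Lpin2 by 0.48 ± 0.09. The DP effects differed between genotypes for Dgat2 (dKO minus WT -1.93 ± 0.18, adjusted p = 0.000221) and Lpin1 (-0.90 ± 0.15, adjusted p = 0.0121), and none of the 34 synthesis genes had a called difference.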
